A study of Bos taurus with 13 samples.

Results

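Blood samples from 13 cows were divided by how much of their RNA came from HBB, the gene for the beta chain of adult haemoglobin. A cow was called haemoglobin-rich where HBB took 0.05% or more of all counts given to named genes, and haemoglobin-poor below that, whatever its cortisol label. The rule chose 6 rich and 7 poor cows of the 13 in the series. All 13 were lactating Italian Simmental cows (Italian Red Pied in the labels) of 1 commercial farm, with no treatment, sampled at the tail vein into PAXgene tubes, and they carried 1 of 2 labels: 7 had been selected for high and 6 for low cortisol in milk. Whole blood was sequenced without globin depletion, and no age of a single cow was given. The classes stand for a measured value and not for a treatment, since they were selected on the HBB counts of these same libraries.

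Red blood cells carry haemoglobin, a tetramer of alpha and beta globin chains that each hold a haem group, and they lose their nucleus before they enter the circulation. The youngest circulating red cells, the reticulocytes, still contain messenger RNA for globins and for ALAS2, which starts haem synthesis in the erythroid line. Adult cattle normally release very few reticulocytes into blood, so the globin share of whole-blood RNA is far lower in cattle than in humans and most of the RNA comes from white cells. In bulk blood, fewer cells of a type and less RNA per cell cannot be told apart.

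The HBB share spanned a wide range even within this low background. In order of share, low 13 had 0.0110%, low 10 had 0.0251%, low 8 had 0.0271%, high 1 had 0.0276%, low 12 had 0.0294%, high 2 had 0.0308% and low 9 had 0.0433% of named-gene counts. Above the threshold, low 11 had 0.0541%, high 4 had 0.0949%, high 6 had 0.116%, high 3 had 0.162%, high 5 had 0.258% and high 7 had 0.796%. The 2 cows next to the threshold were therefore low 9 below it and low 11 above it, and high 7 alone held 162970 HBB counts. The 95% Wilson interval of the share, which covers counting error only, ran from 0.0532 to 0.0550% in low 11 and from 0.0422 to 0.0445% in low 9. With these values the classes were fixed, so they are given as a description and without a test.

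**Figure D1:**
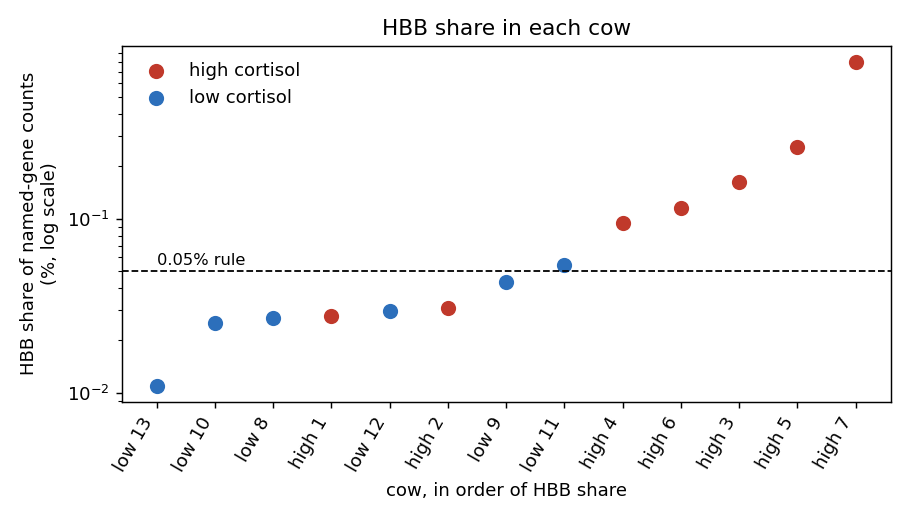
HBB share of named-gene counts (percent, log scale) in each of the 13 cows, ordered by share and coloured by cortisol label, with the 0.05% rule as a dashed line. The 6 cows above the line run from 0.0541 to 0.796%, 5 of them labelled high cortisol, and the 7 below it from 0.0110 to 0.0433%.

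Of the 7 cows with the high cortisol label 5 were rich, and of the 6 with the low label 1 was rich. Fisher's exact test, two-sided, gave p = 0.103 for this association with an odds ratio of 12.5. When 1 cow was left out, the same exact test gave p = 0.0278 without low 11, the low cow next to the threshold, 0.0801 without high 1 or high 2 and 0.242 without any of the other 10 cows. Values of a fit with the cortisol label as a covariate are given for some of the genes and lists.

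The depths of the classes overlapped. Named-gene counts ran from 12198355 to 26529458 in the rich and from 11045599 to 28124575 in the poor cows (mean 18706509 against 17993140, exact permutation test, two-sided, p = 0.82). The share of the entry with no gene name was 13.9 to 16.7% over all cows, and 12370 to 13035 named genes had a count. Of 5 library measures 1 separated the classes. The 10 most abundant genes of each library took 7.41 to 8.62% of its counts in the rich and 8.69 to 9.84% in the poor cows, with no overlap (exact permutation p = 0.0011655, two-sided, the smallest that 1716 ways to choose 6 of 13 cows can give, and an adjusted p of 0.00583 over the 5 measures). With a threshold of 0.1% in place of 0.05% that difference was -0.47 percentage points (exact p = 0.227).

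HBB, which alone set the classes, comes first, with HBG, HBM and HBQ1. Levels are CPM, counts scaled to the normalised library size. Log2 fold changes are rich against poor, with a standard error worked back from the change and the F statistic of its test. A ± after a log2 fold change gives that error, and a ± after a mean CPM gives the SD. HBB (chromosome 15, 49022978 to 49024619 on UMD3.1) had a lowest, median and highest level of 525, 1352 and 7507 CPM in the rich cows and 115, 292 and 429 CPM in the poor cows. HBG, a beta-like globin gene on the same chromosome (chromosome 15, 49073060 to 49074738), had 7.98, 27.0 and 162 CPM in the rich cows and 2.52, 5.40 and 7.36 CPM in the poor cows. HBM, an alpha-like globin gene on chromosome 25, had 1.32, 3.07 and 21.1 CPM in the rich cows and 0.188, 0.541 and 1.2 CPM in the poor cows. The fold changes of HBB, HBG and HBM were 3.06, 3.14 and 3.23 on the log2 scale, and in all of them the lowest rich cow was above the highest poor cow. HBQ1, the theta globin gene, did not follow them: it had 0.757, 1.07 and 1.38 CPM in the rich cows and 0.601, 1.05 and 1.97 CPM in the poor cows, with a log2 fold change of -0.03 ± 0.30. Alpha globin itself was not analysed here.

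Many of the listed red-cell genes are expressed in the cells that carry HBB, and some of them also in white cells, so their values are described and not tested. Across 4 lists (membrane and skeleton, haem synthesis, erythroid transcription factors, and red-cell enzymes with other late erythroid genes) 72 genes were listed, 61 had a row in the files and 47 passed the filter on low counts. Of the 47, 21 had a log2 fold change above 0 and 26 below, with a median of -0.03, beside 5700 of 11029 above 0 and a median of 0.01 over all genes. No member of the 4 lists had classes that did not overlap. Over all 11029 genes, 15 (0.136%) were without overlap and higher and 10 (0.0907%) were without overlap and lower in the rich cows. The log2 fold changes of the 47 red-cell genes ran from -0.41 to 0.91. That of HBB, 3.06, belongs to the gene that set the classes and is no yardstick for them. The 14 listed genes below the filter are not among the 47 and are described further on.

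Among the 6 membrane genes that passed the filter, EPB42, which encodes the protein 4.2 that ties band 3 to the red-cell skeleton, had the largest log2 fold change. Its levels were 1.07, 1.79 and 2.81 CPM in the rich cows and 0.571, 0.727 and 1.65 CPM in the poor cows, and its log2 fold change was 0.91 ± 0.31. All rich cows but high 6 lay at the top of the poor range or above it. In other members the classes overlapped. EPB41, the protein 4.1 gene, had 148 ± 26.2 CPM against 142 ± 22.5 CPM (mean ± SD, n = 6 and 7). GYPC, glycophorin C, had 131 ± 31.1 CPM against 135 ± 17.9 CPM. SPTB, beta spectrin, had 4.93 ± 1.25 CPM against 4.81 ± 0.953 CPM.

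In haem synthesis, ALAS2 stood out by its spread. The gene of the first and rate-limiting erythroid enzyme had 29.5, 75.2 and 301 CPM in the rich cows and 19.9, 54.4 and 122 CPM in the poor cows. High 7, with the highest HBB share, had 301 CPM, high 5 had 123 CPM and high 3 had 83.5 CPM. High 1, however, had 122 CPM although it was haemoglobin-poor, and high 4 had 29.5 CPM although it was rich. The log2 fold change of ALAS2 was 0.90 ± 0.50, or 1.45 with the 0.1% threshold and 0.53 with the 0.03% threshold. It ranged from 0.25 to 1.2 when 1 cow was left out, and was 0.30 with the cortisol label as a covariate. Without high 7 it was 0.25, so 1 library decided most of its size.

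The remaining enzymes of the pathway varied less among the rich cows. UROS, uroporphyrinogen synthase, had 12.8, 15.8 and 18.3 CPM in the rich cows and 16.0, 18.8 and 28.8 CPM in the poor cows, with a log2 fold change of -0.34 ± 0.15. FECH, which inserts iron into the haem ring, had 28, 29.6 and 42.8 CPM in the rich cows and 24.9, 29.4 and 35.1 CPM in the poor cows, and its log2 fold change was 0.17 ± 0.13. SLC25A39 and SLC25A38, mitochondrial carriers linked to haem synthesis, had log2 fold changes of -0.19 and -0.12. Of 13 members, 5 lay above and 8 below 0.

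Among erythroid transcription factors, KLF1, the activator of adult beta globin, had 2.53, 3.05 and 4.28 CPM in the rich cows and 2.34, 2.41 and 4.00 CPM in the poor cows. GATA1, which eosinophils, basophils and megakaryocytes also express, had 12.0, 22.9 and 73.3 CPM in the rich cows and 13.2, 25.5 and 46.8 CPM in the poor cows, and its highest value was in high 3, at 73.3 CPM. NFE2, shared with neutrophils and platelets, had 409.6, 809 and 930.5 CPM in the rich cows and 688, 958 and 1302 CPM in the poor cows, with a log2 fold change of -0.41 ± 0.18. TAL1 and LMO2 had log2 fold changes of -0.14 and 0.03. Classes overlapped for each of these factors.

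For late enzymes, CA2, carbonic anhydrase of red cells, had 3.62, 7.93 and 13.9 CPM in the rich cows and 3.33, 4.76 and 10.1 CPM in the poor cows. Its log2 fold change was 0.50 ± 0.30, against 0.06 with the cortisol label as a covariate and 0.28 without high 7. It was 0.77 with the 0.1% threshold and 0.76 with the 0.03% threshold. PRDX2, the main peroxiredoxin of red cells, had 190.4, 288 and 401 CPM in the rich cows and 271, 317 and 474 CPM in the poor cows. CAT, catalase, a member of the antioxidant list and not of this one, had 128, 139 and 162 CPM in the rich cows and 129.7, 140.3 and 160.4 CPM in the poor cows. BNIP3L, which clears mitochondria from maturing reticulocytes, had 178 ± 22.9 CPM against 183 ± 24.2 CPM. The log2 fold changes of PRDX2, CAT and BNIP3L were -0.17, -0.01 and -0.04.

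**Figure D2:**
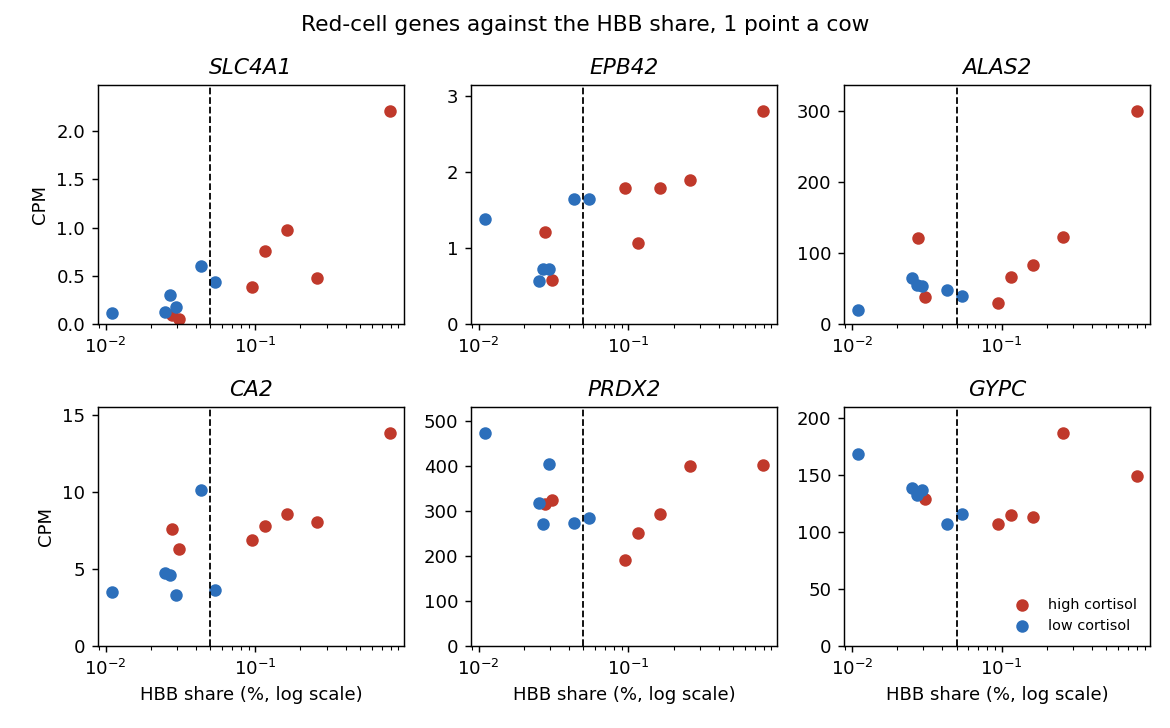
CPM of 6 red-cell genes (vertical axes from 0) against the HBB share of named-gene counts (percent, log scale), 1 point a cow, red for high and blue for low cortisol, with the 0.05% rule dashed. SLC4A1, EPB42, ALAS2 and CA2 peak in the cow with the highest HBB share, at 2.21, 2.81, 301.1 and 13.9 CPM, while PRDX2 and GYPC overlap widely between the classes.

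Other genes of the red-cell lists were too rare for the fit. Of the 61 listed genes with a row, 14 were below the filter, among them SLC4A1 (band 3, the anion exchanger), RHAG, KEL, DMTN, ICAM4, ADD2, ART4, ACKR1, SOX6, EPOR, AHSP, HEMGN and TSPO2. Their summed level was 1.98 to 10.1 CPM in the rich cows (31 to 219 counts) and 0.656 to 3.15 CPM in the poor cows (13 to 42 counts). The highest sum was in high 7, and among poor cows the highest, 3.15 CPM, was in low 9, the poor cow with the largest HBB share. In a fit with no filter, 11 of the 13 with any count had a log2 fold change above 0, with a median of 2.03, beside 1957 of all 3344 genes below the filter above 0 and a median of 0.19. Members pass or fail that filter on counts from the same libraries, so these figures describe a few counts per gene.

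SLC4A1 had 0.383, 0.617 and 2.21 CPM in the rich cows and 0.0579, 0.127 and 0.601 CPM in the poor cows. The highest values were those of high 7 (2.21 CPM) and high 3 (0.975 CPM), and low 9 had 0.601 CPM, above low 11, high 4 and high 5. HEMGN, a nuclear protein of erythroid precursors, had 0.146, 0.408 and 1.2 CPM in the rich cows and 0, 0.120 and 0.901 CPM in the poor cows. RHAG, the Rh-associated glycoprotein, had no count in 5 of 7 poor cows and in low 11, and reached 0.645 CPM in high 7. AHSP, the chaperone of free alpha globin, had 0, 0.158 and 0.599 CPM in the rich cows and 0.0469, 0.317 and 0.463 CPM in the poor cows, with no separation. TSPO2 had no count in any cow. A count of 0 allows a level of up to 0.107 to 0.272 CPM, which is 3 counts in each library. Classes overlapped in SLC4A1, HEMGN and AHSP, and the loci of 3 red-cell microRNAs had at most 2 counts in a cow.

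Genes of iron handling and haemoglobin clearance were described next. FLVCR1, a haem exporter that protects erythroid precursors, had 7.96, 10.8 and 19.0 CPM in the rich cows and 5.05, 8.34 and 9.46 CPM in the poor cows, with high 4 highest. Its log2 fold change was 0.62 ± 0.20, or 0.42 without high 4 and 0.03 with the 0.1% threshold, with an unadjusted edgeR p of 0.00808 and an adjusted p of 0.505. TFRC, the transferrin receptor that brings iron into cells, had 7.88, 8.70 and 14.8 CPM in the rich cows and 6.09, 7.11 and 10.2 CPM in the poor cows, with a log2 fold change of 0.38 ± 0.18. In FTH1, the ferritin heavy chain, the log2 fold change was -0.20 ± 0.11. Of 8 iron genes tested, 3 lay above and 5 below 0. All 7 tested genes of the clearance list lay below 0, with a median of -0.15. They included HMOX1, which breaks haem down (-0.22 ± 0.16), and CD163, the haemoglobin scavenger receptor of macrophages (-0.15 ± 0.27). The list also holds A2M, which encodes a protease inhibitor (-0.45 ± 0.18). Of the 7, only A2M had an unadjusted edgeR p under 0.05 (0.0272), beside 4.16% of all genes that were lower.

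Across the remaining genes no difference between the classes passed the correction. In edgeR's quasi-likelihood fit of 11029 genes, with the 4 haemoglobin genes set aside, 0 genes (0.0%) had a Benjamini-Hochberg adjusted p under 0.05, and the smallest was 0.376. At an unadjusted p under 0.05 there were 1084 genes, of which 625 (5.67%) were higher and 459 (4.16%) lower in the rich cows. DESeq2, the tool of the study, called 3 of 14334 genes with an adjusted p (0.0209%), and limma-voom called 0, with 967 at an unadjusted p under 0.05. The number at an unadjusted p under 0.05 was 2222 without high 5 and 605 without high 4, and 548 with the cortisol label as a covariate. High 4 was the highest of the 13 cows for many of the higher genes, and values without it are given for some of them. Since the classes were set from HBB in these libraries, each p describes an association among these 13 cows.

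The 3 genes that DESeq2 called were all lower in the rich cows, and they were also among the 4 lower genes with the smallest edgeR p. ANO10, an anoctamin membrane protein (chromosome 22, 15934723 to 16139094), had 31.6, 34.5 and 40.7 CPM in the rich cows and 43.1, 52.8 and 72.0 CPM in the poor cows, without overlap. Its log2 fold change was -0.67 ± 0.13 in edgeR, with an adjusted p of 0.376, and -0.68 in DESeq2, with an adjusted p of 0.00888. TGM3, a transglutaminase that cross-links proteins (chromosome 13, 53261635 to 53304213), had 527, 791 and 1095 CPM in the rich cows and 863, 1536 and 2285 CPM in the poor cows. In edgeR its log2 fold change was -0.93 ± 0.21 with an adjusted p of 0.505, and DESeq2 gave an adjusted p of 0.0398. CS, citrate synthase, the entry enzyme of the citric acid cycle (chromosome 5, 57366008 to 57389596), had 137, 142 and 155 CPM in the rich cows and 167, 173 and 207 CPM in the poor cows. All 6 rich cows were below all 7 poor cows, and the log2 fold change was -0.33 ± 0.08 (edgeR adjusted p 0.505, DESeq2 adjusted p 0.0443).

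With the 0.1% threshold the log2 fold changes of ANO10, TGM3 and CS were -0.51, -0.61 and -0.28. With the 0.03% threshold they were -0.48, -0.43 and -0.29. With the cortisol label as a covariate they were -0.70, -1.01 and -0.27. Within the 7 high cortisol cows alone, 5 rich against 2 poor, they were -0.75, -1.07 and -0.30. These 7 cows, whose poor members are high 1 and high 2, are part of the 13 in the whole fit. The 6 low cows hold 1 rich cow, low 11, and gave no fit of their own.

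Other lower genes with a small unadjusted p had functions apart from red cells. ADGRE1, the adhesion receptor known as F4/80 in mouse macrophages and also expressed by eosinophils, had 33.3, 53.9 and 88.6 CPM in the rich cows and 81.8, 93.2 and 199 CPM in the poor cows. Its log2 fold change was -0.96 ± 0.23, with low 12 highest among the poor and low 11 highest among the rich cows. ASGR2, a subunit of the asialoglycoprotein receptor, had 0.442, 0.604 and 0.732 CPM in the rich cows and 0.751, 1.41 and 2.26 CPM in the poor cows, without overlap and with a log2 fold change of -1.25 ± 0.31. GSN, gelsolin, which severs actin filaments, had 224, 299 and 429 CPM in the rich cows and 369, 421 and 585 CPM in the poor cows, and SCN4B, a sodium channel subunit, had 1.86, 2.84 and 4.17 CPM in the rich cows and 3.15, 6.08 and 15.2 CPM in the poor cows. The log2 fold changes of GSN, SCN4B, C24H18orf8, SLC26A6 (an anion exchanger) and SPTLC2 (serine palmitoyltransferase) were -0.58, -1.30, -0.33, -0.40 and -0.32. All of them had an edgeR adjusted p of 0.505.

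In the other direction, FAM131B had the smallest unadjusted p. Its levels were 6.00, 7.82 and 13.5 CPM in the rich cows and 2.44, 3.75 and 7.03 CPM in the poor cows, with low 13 the only poor cow inside the rich range, and its log2 fold change was 1.04 ± 0.24. HTR3E, a subunit of the serotonin type 3 receptor, had 2.78, 4.59 and 5.28 CPM in the rich cows and 2.09, 2.58 and 3.06 CPM in the poor cows, with only high 6 inside the poor range. SLC7A6, a cell-surface carrier of basic and neutral amino acids, had 144, 174 and 197 CPM in the rich cows and 88.2, 124 and 144 CPM in the poor cows, and its log2 fold change was 0.47 ± 0.11. Each of these had an edgeR adjusted p of 0.505.

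Among the 10 higher genes with the smallest p, the 5 described next were free of overlap. Over all 11029 genes, 15 (0.136%) were without overlap and higher, and these 5 were picked by their p in the same cows. ZNF879, a zinc finger gene, had 0.605, 0.941 and 1.02 CPM in the rich cows and 0.120, 0.360 and 0.516 CPM in the poor cows, which are low counts (1.37 on the log2 scale). C14orf28 had 1.95, 2.37 and 3.89 CPM in the rich cows and 1.08, 1.33 and 1.88 CPM in the poor cows, and NAA25, a subunit of an N-terminal acetyltransferase, had 15.8, 17.8 and 24.5 CPM in the rich cows and 10.8, 13.8 and 15.2 CPM in the poor cows. ZBTB10, a zinc finger repressor, and CDC14A, a phosphatase, had log2 fold changes of 0.73 ± 0.20 and 0.68 ± 0.19. High 4 was the highest cow in C14orf28, at 3.89 CPM, and in CDC14A, at 24.4 CPM, and without it their log2 fold changes were 0.71 and 0.45, and that of ZBTB10 was 0.56. With the 0.1% threshold the log2 fold changes of C14orf28, CDC14A and ZBTB10 were 0.28, 0.12 and 0.28, and those of ZNF879 and NAA25 were 0.77 and 0.20. ADCYAP1R1, the receptor of the peptide PACAP, had a log2 fold change of 0.54 ± 0.15, with overlap. All of these genes had an edgeR adjusted p of 0.505.

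**Figure D3:**
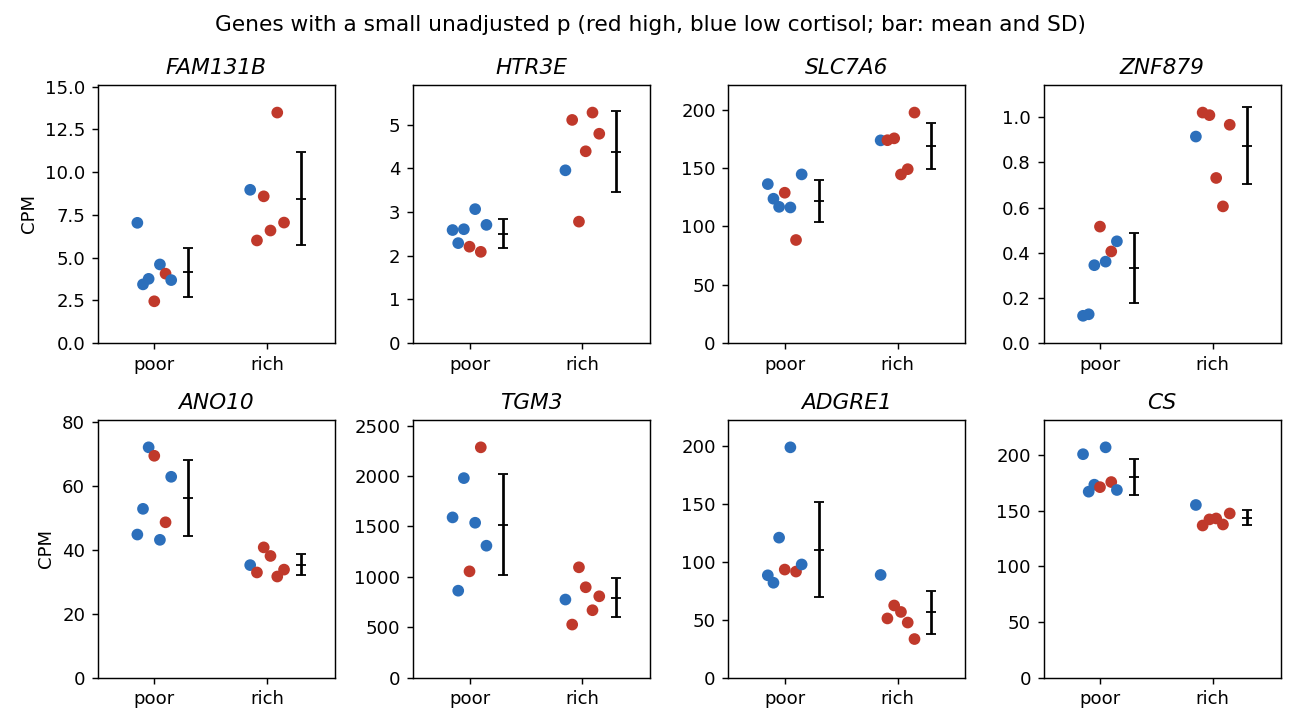
CPM (linear axes from 0) in each cow of 4 of the 10 higher genes with the smallest unadjusted edgeR p (top row) and of the 4 lower genes with the smallest (bottom row), by haemoglobin class, red for high and blue for low cortisol. Black bars give the mean and SD of the 7 poor and 6 rich cows, and ZNF879, ANO10 and CS show no overlap between the classes.

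Genes could also follow HBB by rank without a threshold. Over the 13 cows, Spearman's rho with the HBB level was highest for CBLB, a ubiquitin ligase that restrains T cell activation (rho 0.885), followed by RBM33 (0.868), NOL9 (0.857), ARG1 (0.841) and SEL1L (0.835). The lowest were PDIA3, a disulphide isomerase of the endoplasmic reticulum (-0.890), GNA11 (-0.874), PTPRG (-0.874), SLC26A6 (-0.868) and, with equal values, SEMA6C and ME2 (-0.863). These are descriptions over 13 libraries that share depth and makeup, and carry no p. They were picked as the extremes of 11029 genes, so their size cannot be read as that of a gene chosen beforehand. ARG1, the arginase of the urea cycle that is also expressed in myeloid cells, had 0.894, 2.45 and 5.25 CPM in the rich cows and 0, 0.721 and 2.48 CPM in the poor cows. PDIA3 had 535, 581 and 635 CPM in the rich cows and 627, 667 and 707 CPM in the poor cows, which is a narrow range with a log2 fold change of -0.18 ± 0.08.

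STX1A, a syntaxin, was the 1 gene that edgeR called when the log2 HBB share replaced the classes (adjusted p 0.0295, slope 0.64 per doubling of the share), and it is named for that call after its values were seen. It had 10.5 CPM in high 7 and 0.42 to 1.22 CPM in the other 12 cows. That call therefore went with the value of 1 library, and without it the classes differed by 0.32 on the log2 scale.

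White-cell and platelet lists were compared in the same fit, with 0 members past the correction in any list. Platelet genes lay mostly below 0: 10 of 11 tested, with a median of -0.49, which was -0.27 with the 0.1% threshold. VWF, von Willebrand factor, had 9.83, 28.2 and 39.7 CPM in the rich cows and 26.1, 51.3 and 96.6 CPM in the poor cows, with a log2 fold change of -1.04 ± 0.32 and an unadjusted edgeR p of 0.00494. ITGA2B, the platelet integrin alpha chain, had 71.6, 88.6 and 136 CPM in the rich cows and 91.8, 127 and 179 CPM in the poor cows and a log2 fold change of -0.51 ± 0.18. The summed list of 12 platelet genes was 321 to 459 CPM in the rich and 374 to 813 CPM in the poor cows, highest in low 9, low 8 and high 1, and PF4 and ITGB3 were not analysed here. Platelets, like red cells, carry RNA without a nucleus, and the part of their number in these values was not tested.

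T cell genes lay mostly above 0: 15 of 19, with a median of 0.12, which was 0.07 without low 11 and 0.22 without low 13. At an unadjusted edgeR p under 0.05 there were 5 higher members, among them ZAP70, BCL11B, IL7R and CD3G, beside 5.67% of all genes, and 1 lower member, CD4, beside 4.16%. ZAP70, the kinase recruited to the T cell receptor, had 279.6, 322 and 381 CPM in the rich cows and 180.2, 241 and 342 CPM in the poor cows, with a log2 fold change of 0.44 ± 0.13. BCL11B, a T-lineage transcription factor, had 0.75 ± 0.25 on that scale, IL7R, the interleukin 7 receptor, 0.60 ± 0.23, and CD3G 0.47 ± 0.21. High 4 was the highest cow in these 3, and they stood at 0.50, 0.36 and 0.35 without it and at 0.14, 0.07 and 0.07 with the 0.1% threshold. CD4, the helper T cell coreceptor that some myeloid cells also carry, had -0.26 ± 0.11. The abundant CD3E and CD3D had log2 fold changes of 0.06 ± 0.16 and 0.12 ± 0.14. The summed list ran from 4895 to 6611 CPM in the rich and from 5065 to 7775 CPM in the poor cows, so the sums overlapped, with low 13 at the top.

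Neutrophil genes had a median of -0.20 over 14 tested, 10 of them below 0. That median was -0.09 without low 8, -0.11 without high 7, -0.13 without low 9 and -0.33 without high 3, and with a threshold of 0.03% it was 0.04. CSF3R, the receptor of granulocyte colony-stimulating factor, had 2107, 3001 and 3682 CPM in the rich cows and 2969, 3911 and 6099 CPM in the poor cows, with a log2 fold change of -0.52 ± 0.18. NCF4, a subunit of the NADPH oxidase, had 217, 273 and 301 CPM in the rich cows and 287, 316 and 372 CPM in the poor cows and -0.30 ± 0.10 on that scale. S100A9 and S100A12, calcium-binding proteins of granulocytes, had log2 fold changes of -0.36 ± 0.17 and 0.45 ± 0.33. Only CSF3R and NCF4 had an unadjusted edgeR p under 0.05, 0.0110 and 0.00699, beside 4.16% of all genes that were lower. The summed list was 5949 to 9849 CPM in the rich and 7194 to 12320 CPM in the poor cows.

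Enzymes of glucose breakdown lay below 0 in all 14 tested, with a median of -0.19. At an unadjusted edgeR p under 0.05, 6 were lower, among them PKM, TPI1, ALDOA, PFKL and PGK1, beside 4.16% of all genes. PKM, pyruvate kinase, had 898, 1270 and 1353 CPM in the rich cows and 1311, 1553 and 1827 CPM in the poor cows, with a log2 fold change of -0.43 ± 0.12. ALDOA, aldolase A, had 903, 1297 and 1675 CPM in the rich cows and 1395, 1638 and 2052 CPM in the poor cows, and TPI1, triosephosphate isomerase, had 212, 296 and 396 CPM in the rich cows and 341, 372 and 449 CPM in the poor cows. The summed list ran from 4680 to 7403 CPM in the rich and from 6569 to 8468 CPM in the poor cows, lowest in high 4. Leaving out each cow in turn kept the median below 0.

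Proliferation genes lay below 0 in 18 of 19, with a median of -0.43, which was -0.27 without low 13 and -0.25 with the cortisol label as a covariate. The 5 with an unadjusted edgeR p under 0.05, all lower and beside 4.16% of all genes, were MCM5, MCM2, MCM3, CCNB2 and BUB1, which act in DNA replication and mitosis. MCM5, part of the replicative helicase, had 40.4, 52.3 and 55.2 CPM in the rich cows and 44.0, 66.7 and 115 CPM in the poor cows, with a log2 fold change of -0.49 ± 0.17. MKI67, the usual marker of dividing cells, had 34.5, 56.9 and 78.0 CPM in the rich cows and 44.1, 67.3 and 137 CPM in the poor cows and -0.53 ± 0.27 on the log2 scale. The summed list was 506 to 799 CPM in the rich and 561 to 1272 CPM in the poor cows, and it was highest in low 13 and low 12.

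Interferon-induced genes lay below 0 in all 24 tested, with a median of -0.56, and this rested on few cows. Mx1, an antiviral GTPase, had 223, 358 and 921 CPM in the rich cows and 254, 601 and 2253 CPM in the poor cows, with low 8, low 12 and, in the rich class, high 5 highest. Its log2 fold change was -1.06 ± 0.46, or -0.50 with the cortisol label as a covariate, and within the high cortisol cows alone it was 0.10. IFIT3 and HERC5 had log2 fold changes of -0.56 ± 0.25 and -0.76 ± 0.34. With Mx1, 3 of the 24 members were lower at an unadjusted edgeR p under 0.05, beside 4.16% of all genes. The list median was -0.19 with the cortisol label as a covariate and 0.15 in the high cortisol cows alone. It was -0.26 without low 8 and -1.01 without high 5. Each of 2 low cortisol cows, low 8 and low 12, was more than 0.8 above the 13-cow mean in the list's mean log2 level, as was high 5.

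Ribosomal protein genes lay above 0 in 35 of 52 tested, with a median of 0.12, and 9 had an unadjusted edgeR p under 0.05, all higher and beside 5.67% of all genes. These 9 had wide spreads: RPL37, of the large subunit, had 44.6, 92.4 and 782 CPM in the rich cows and 36.4, 67.8 and 98.2 CPM in the poor cows and a log2 fold change of 1.52 ± 0.59, and RPS27A, of the small subunit, had 66.2, 121 and 729 CPM in the rich cows and 54.0, 99.0 and 149.7 CPM in the poor cows and 1.27 ± 0.49 on that scale. Both were highest in high 4, and without that cow their log2 fold changes were 0.27 and 0.41 and 0 of the 9 had an unadjusted edgeR p under 0.05, with a list median of 0.06. The whole list took 3.98 to 5.95% of the counts in the rich and 3.43 to 5.49% in the poor cows (exact permutation p = 0.302, two-sided). Proteasome genes lay below 0 in 21 of 30, with a median of -0.13, and 3 were lower at an unadjusted edgeR p under 0.05, PSMD13, PSMC1 and PSMD2, beside 4.16% of all genes. In the heat shock and immediate early list HSPA8, the constitutive chaperone, had 1779, 1920 and 2346 CPM in the rich cows and 1999, 2319 and 2474 CPM in the poor cows and a log2 fold change of -0.19 ± 0.09.

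The other lists lay near 0 or rested on few genes. B cell genes had a median of 0.14, with 8 of 10 above 0, and it was -0.09 with the cortisol label as a covariate and -0.01 without high 5. Cytotoxic and NK cell genes had a median of -0.02 over 12 and monocyte genes -0.05 over 10. Glucocorticoid-responsive genes, the list closest to the study's question, had a median of -0.03, with 6 above and 8 below 0. Within it ZBTB16 had a log2 fold change of 0.75 ± 0.31 and SGK1, a kinase induced by glucocorticoids, of -0.43 ± 0.19. Antioxidant genes had a median of -0.10 over 10, and GCLC, which limits glutathione synthesis, had 0.45 ± 0.17, or 0.23 without high 4. Gamma delta T cell genes had a median of 0.29 over 3, plasma cell genes -0.09 over 7, immature granulocyte genes -0.20 over 5 and eosinophil genes 0.15 over 5. The eosinophil median was -0.40 without high 3 and 0.62 with the 0.03% threshold, the gamma delta T cell median was 0.50 without low 13, and the immature granulocyte median was -0.10 without low 8. The monocyte median was 0.24 with the 0.03% threshold. In the immediate early and heat shock list 9 of 12 were below 0, with HSPA6, an inducible chaperone, at -1.10 ± 0.42.

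**Figure D4:**
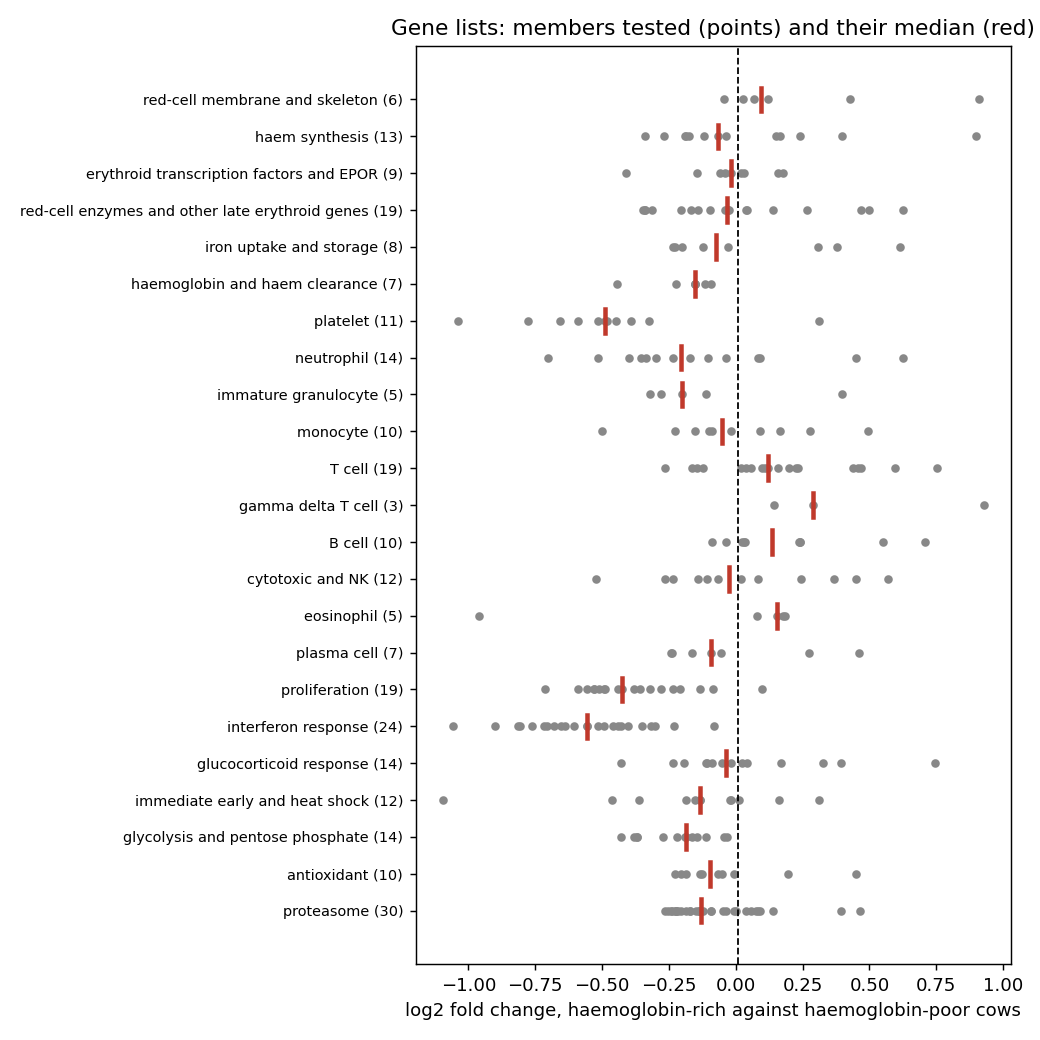
Log2 fold change, rich against poor, of each tested member of 23 gene lists (grey points, number tested in brackets), with the list median in red and the median of all genes dashed. The 4 red-cell lists at the top have medians from -0.07 to 0.09 over the members that passed the filter. Platelet, proliferation and interferon genes have medians of -0.49, -0.43 and -0.56. With no filter the membrane list median was 1.70, and in the high cortisol cows alone the interferon median was 0.15.

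Of the other globin genes, CYGB, cytoglobin, had 0.958, 4.42 and 6.31 CPM in the rich cows and 0.375, 1.5 and 5.29 CPM in the poor cows and a log2 fold change of 1.14 ± 0.50. MB, the oxygen store of muscle, had 52.8 CPM in low 11 and 2.93 CPM in high 3 and no count in the other 11 cows. Both are named as members of a globin list of 2 with a row, and MB was below the filter.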

How the data were processed

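Whole-blood RNA of 13 cows was measured by RNA-seq, and no globin depletion was done. The deposited values are raw counts of reads per gene, 1 table a cow. Per the labels the authors aligned reads to ARS-UCD1.2 with STAR 2.7.3 and counted them with featureCounts of Subread 1.6.5. Per the file headers, however, the counts came from featureCounts 1.4.6-p3 over Ensembl 88 exons of UMD3.1 by gene name, with no strand option, and coordinates here are those of UMD3.1. Without strand, reads of overlapping antisense genes cannot be told apart, and reads of near-identical globin copies may be split or lost. The headers also carry animal numbers unlike the sample titles, so cortisol labels rest on the titles alone. No 2 tables were identical, and Pearson's correlation of log2 CPM between 2 cows ran from 0.969 to 0.994.

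The entry without a gene name was left out, with 13.9 to 16.7% of the counts. Classes were selected on the HBB share of the 16095 named genes. edgeR 4.0.16 (TMM, genes passing filterByExpr at a minimum count of 10, robust quasi-likelihood test, Benjamini-Hochberg over 11029 genes, threshold 0.05) compared the classes, with R 4.3.3. Its CPM and the mean log2 CPM of a list, as a difference from the 13-cow mean, are descriptions. Exact permutation tests, two-sided, compared library measures with SciPy 1.17.1. Alternatives were DESeq2 1.42.0, limma-voom (limma 3.58.1), RLE factors, no filter, other HBB thresholds (0.1% and 0.03%), covariates and leaving out cows; the script for the fit was tested on simulated data first. Genes named outside lists are, for either direction, the 10 of smallest p, and the 5 highest and lowest in rank correlation with HBB; in red-cell lists, members without overlap and up to 4 of the most abundant, plus those with the largest change or of best-known role, chosen after their values were seen; in other lists, up to 4 of the most abundant and those with an unadjusted p under 0.05. Some genes that meet these rules are not reported here. The rule, the classes and the 26 lists were chosen with earlier results of these data known. Each cow is 1 animal, and depth of 11045599 to 28124575 counts puts the level that 3 counts stand for at 0.107 to 0.272 CPM.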

Additional observations from a re-analysis of the deposited data

Results flagged for a closer look

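For 53 measures, the cow at either end of its class was judged by its gap to the nearest cow over the range of the class. In 11 of 106 groups, each a measure in 1 class, a cow was past the 95% limit of Dixon's test. That limit passes about 1 group in 20 for independent, normally distributed values. The measures here share cows and include genes picked for a small p, so that rate cannot judge the 11. One of the 11 is the HBB share of high 7 in the rich class, 0.796% (next 0.258%), which set the classes and is given as a description only. High 7 also had 301 CPM of ALAS2 (next 123 CPM). High 4 had 3.89 CPM of C14orf28 (next 2.60), 24.4 CPM of CDC14A (next 13.3) and a gamma delta T cell level of -0.29, the mean log2 level of the list as a difference from the 13-cow mean (next 0.32). On that scale high 3 had 1.25 for eosinophil genes (next -0.04) and high 5 had 1.08 for interferon genes (next -0.29). In the poor class low 13 had 0.28 for T cell genes (next -0.02) and 0.76 for gamma delta T cell genes (next -0.20). Low 12 had 198.6 CPM of ADGRE1 (next 121 CPM), and low 8 had 15.2 CPM of SCN4B (next 8.20 CPM).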

How the results depend on the processing

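The count of genes with an adjusted p under 0.05 was 3 with DESeq2, 1 with the log2 HBB share as a covariate and 0 in each other fit. The count at an unadjusted p under 0.05 was 346 at the 0.1% threshold, 548 with the cortisol label as a covariate, 355 in the high cortisol cows alone and 579 with the log2 HBB share, and 605 (without high 4) to 2222 (without high 5) when 1 cow was left out. Leaving out both cows nearest the threshold, low 9 and low 11, a choice made after seeing the data, gave 1330. Among these genes 57.7% were higher in the rich cows, but 36.4% with the log2 HBB share and 43.8% without high 4. The cortisol label gave an exact p of 0.0278 (without low 11) to 0.242 when 1 cow was left out. The difference in the share of the 10 most abundant genes was -0.47 percentage points at the 0.1% threshold. The difference in mean depth was -678245 at that threshold and -851220 to 2401940 when 1 cow was left out. Mx1 was at 0.10 on the log2 scale in the high cortisol cows alone. Each cause was not tested. The median of the membrane list was 1.70 with no filter and 1.6 with DESeq2, which both take in its rare members. The 20 genes with the smallest p kept their direction in 24 alternatives. They were picked in the main fit of these same cows, so the kept direction is no separate support. With the 0.1% threshold the log2 fold changes of CDC14A and NAA25 were 0.12 and 0.20. Slopes on the log2 HBB share are per doubling, so gene and list values were not set beside it. The 6 low cortisol cows hold 1 rich cow, and that fit was not run. No paired analysis was possible because no replicate number is shared between the labels. Depth limits the red-cell genes below the filter to a few counts a cow.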
